A study of Homo sapiens with 6 samples.

Results

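The extracellular metalloproteinases and their tissue inhibitors were followed in the human liver cancer line Hep-G2 after knockdown of CLGN, the gene of the endoplasmic reticulum chaperone calmegin. The 10 genes, taken by their symbols from the 58735 genes measured, were the matrix metalloproteinases MMP9, MMP11, MMP14 and MMP15, the membrane-anchored disintegrin metalloproteinases ADAM9, ADAM10 and ADAM17, and the inhibitors TIMP1, TIMP2 and TIMP3. Messenger RNA was sequenced in 3 libraries of cells with a knockdown hairpin that targets CLGN (sh-CLGN) and in 3 libraries of cells with a negative control hairpin (sh-NC). Per the study's methods the hairpins were delivered by lentivirus with puromycin selection, and a single hairpin sequence is given for each group, so both groups share viral transduction and selection. The labels do not state that the libraries came from separate cultures, so the p-values measure only the spread between these libraries.

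Matrix metalloproteinases are zinc enzymes that cut collagen, other matrix proteins and cell surface proteins. MMP14 and MMP15 sit in the plasma membrane, MMP9 and MMP11 are secreted, and all are made as inactive proenzymes. ADAM10 and ADAM17 release the outer part of membrane proteins such as cadherins, Notch receptors, growth factors and cytokine receptors. TIMPs block the active site of these enzymes, and in the liver the balance of matrix proteases and TIMPs is best known from fibrosis and tumor invasion.

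Expression was given as FPKM, a read count scaled by gene length and library size. The reads behind these values numbered 14955816 to 16244639 per library. Genes with at least 1 read numbered 23578 to 23793 per sh-NC library and 26814 to 27006 per sh-CLGN library. CLGN itself, the targeted gene, gave 24.1, 21.0 and 26.1 FPKM in replicates 1, 2 and 3 of sh-NC, against 9.48, 8.88 and 8.60 FPKM in those of sh-CLGN, a log2 change of -1.31 (SE 0.081, adjusted p = 8.35e-06, limma). All 8 hepatocyte markers examined were expressed, with a summed level of 6785 to 7014 FPKM in control libraries and 6729 to 7146 FPKM after knockdown. Within this sum 2 markers were higher and 5 lower: AFP was at 142% and TTR at 150% of the sh-NC level, ALB at 53.6% and TF at 32.2%. Genes that reached 1 FPKM in 3 or more libraries were tested with limma on log2(FPKM + 1), with Benjamini-Hochberg adjustment over 13074 genes. Log2 changes below are on that scale, which understates the change of low genes, and are sh-CLGN against sh-NC.

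Of the 10 genes, 9 passed this filter. At an adjusted p of at most 0.05, TIMP1 and TIMP3 were higher in sh-CLGN, MMP14, MMP15, ADAM9 and ADAM17 were lower, and MMP11, ADAM10 and TIMP2 did not pass. Much of the transcriptome met the same rule. Among all genes tested 65.8% were called, 26.7% higher and 39% lower, so 6 of 9 (66.7%) was near the background. The share of all calls that were higher was 40.7%, and it became 59.2% with scaling by read totals and 52.2% with TPM. An absolute log2 change of at least 1 as well was met by MMP15 and TIMP1, 2 of 9 (22.2%), against 6.28% of all genes tested. The groups did not overlap for 6 of 9 genes (66.7%) and for 70.2% of all genes tested. The median log2 change of the 9 genes was -0.05, beside -0.08 over all genes tested.

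**Figure D1:**
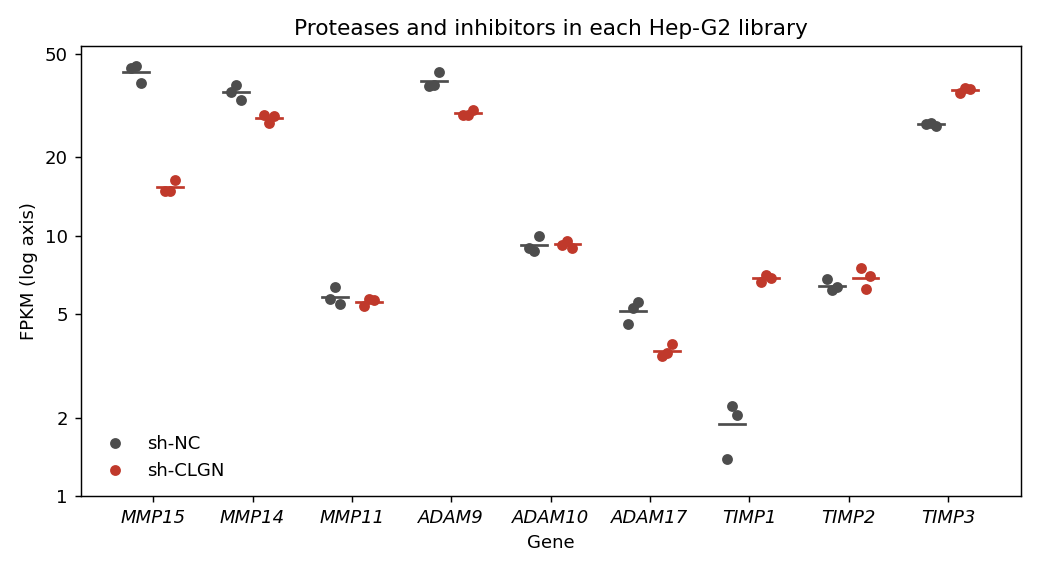
FPKM (log axis) of the 9 expressed genes in each library, with sh-NC in grey and sh-CLGN in red. Points are libraries and lines are group means of 3 libraries. MMP15 fell from 38.6 to 45.1 FPKM to 14.8 to 16.4 FPKM, TIMP1 rose from 1.40 to 2.22 FPKM to 6.66 to 7.05 FPKM, and the groups overlap for MMP11, ADAM10 and TIMP2.

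Of the 4 matrix metalloproteinases, MMP15 and MMP14 fell, MMP11 was not called and MMP9 was at the limit of detection. MMP15 showed the largest change. MMP15 (ENSG00000102996, GRCh38 chromosome 16, 58025566 to 58046901, plus strand) encodes a membrane-type enzyme. It was at 44.3, 45.1 and 38.6 FPKM across replicates 1, 2 and 3 of sh-NC. Replicates 1, 2 and 3 of sh-CLGN gave 14.8, 14.9 and 16.4 FPKM. Every sh-CLGN library thus lay below every sh-NC library, and the sh-NC libraries were more spread out. The means were 42.6 ± 3.52 and 15.4 ± 0.882 FPKM (SD, n = 3), a 2.77-fold lower level in sh-CLGN. The log2 change was -1.41 (SE 0.072, adjusted p = 3.93e-06, limma). The reads behind it fell from 2640 to 2908 per control library to 1079 to 1170 per knockdown library, and its log2 change lay between -1.48 and -1.09 under every alternative tried. MMP15 transcripts have a GC content of 66.0%, in the highest of 10 equal bins of the genes tested by GC content, a bin whose median log2 change was -0.29. The part of GC content in the fall was not tested beyond a correction for it, under which the log2 change was -1.09.

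The genes whose levels were most like that of MMP15 over the 6 libraries were GRK6, a kinase of G protein-coupled receptors (Pearson r = 0.9999), C6orf106 (r = 0.9998) and the lipid transporter ABCA2 (r = 0.9998). These values describe 6 points that share the split into 2 groups. The log2 changes of these genes were -0.92, -0.37 and -1.49.

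MMP14 (ENSG00000157227, chromosome 14, 22836557 to 22849027, plus strand) encodes the other membrane-type member, known for activating pro-MMP2 on the cell surface together with TIMP2. Its levels were 35.6, 37.9 and 33.2 FPKM across replicates 1, 2 and 3 of sh-NC. The 3 sh-CLGN libraries gave 29.1, 27.1 and 28.9 FPKM. The groups did not overlap, but the gap between them was small: the means were 35.6 ± 2.34 and 28.4 ± 1.09 FPKM (SD, n = 3), so sh-CLGN was at 79.7% of the sh-NC level. This was a log2 change of -0.32 (SE 0.060, adjusted p = 0.0022, limma). The call was lost under 3 alternatives. With scaling by read totals the log2 change was -0.13 (adjusted p = 0.0868), with quantile normalization -0.04 (adjusted p = 0.507) and with a GC correction -0.07 (adjusted p = 0.159, limma throughout). MMP2, the gelatinase that MMP14 activates, had 0 reads in all 6 libraries, a level at which 3 reads would have been 0.0358 to 0.0436 FPKM.

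MMP11 (ENSG00000099953, chromosome 22, 23768226 to 23784316, plus strand), a secreted enzyme also called stromelysin-3, was at 5.71, 6.34 and 5.47 FPKM across replicates 1, 2 and 3 of sh-NC. With the CLGN hairpin the values were 5.39, 5.73 and 5.66 FPKM. The groups overlapped. The log2 change was -0.05, with a 95% interval of -0.20 to 0.10 (adjusted p = 0.521, limma), so with the deposited scaling a change as large as that of MMP14 lay outside the interval. Under a GC correction MMP11 was called higher, at 0.21 (adjusted p = 0.0118, limma). CHCHD10 on the opposite strand, at 58.4 FPKM in sh-NC and 12.1 FPKM in sh-CLGN, shares 218 exon bases (4.21%) with MMP11. Whether reads were counted by strand is not given in the sources used here, and the part of CHCHD10 in the MMP11 level was not tested.

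MMP9 (ENSG00000100985, chromosome 20, 46008908 to 46016561, plus strand), the inducible gelatinase often used as a marker of invasion, was at the detection limit. It had 1 read in sh-NC replicate 3 and 0 reads in the other 5 libraries. A level of 3 reads would have been 0.0757 to 0.0921 FPKM, so no difference in MMP9 was detectable at this depth, and no fold change is given.

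Of the ADAM genes, ADAM9 and ADAM17 fell and ADAM10 was not called. ADAM9 (ENSG00000168615, chromosome 8, 38996869 to 39105144, plus strand), a widely expressed sheddase of growth factors, was at 37.7, 38.1 and 42.5 FPKM across replicates 1, 2 and 3 of sh-NC. For sh-CLGN the values were 29.2, 29.2 and 30.4 FPKM. No sh-CLGN library reached the lowest sh-NC library. The means were 39.4 ± 2.66 and 29.6 ± 0.691 FPKM (SD, n = 3), 75.1% of the sh-NC level, and the log2 change was -0.40 (SE 0.058, adjusted p = 0.000509, limma). Quantile normalization ended this call (log2 change -0.11, adjusted p = 0.163, limma), and scaling by read totals left -0.21 (adjusted p = 0.0168, limma).

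ADAM17 (ENSG00000151694, chromosome 2, 9488486 to 9556732, minus strand), the TNF-converting enzyme, was at 4.59, 5.28 and 5.58 FPKM across replicates 1, 2 and 3 of sh-NC. Knockdown replicates 1, 2 and 3 gave 3.45, 3.54 and 3.83 FPKM. Again the groups did not overlap. The means were 5.15 ± 0.504 and 3.61 ± 0.198 FPKM (SD, n = 3), 70.0% of the sh-NC level. It had a log2 change of -0.41 (SE 0.078, adjusted p = 0.0020, limma), and it stayed called under every alternative tried, at -0.58 to -0.26. IAH1 on the opposite strand fell from 4.96 to 2.26 FPKM and shares 1323 exon bases (12.3%) with ADAM17; its part in the fall was not tested.

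ADAM10 (ENSG00000137845, chromosome 15, 58588807 to 58749978, minus strand), the main sheddase of Notch and cadherins, was at 9.01, 8.71 and 9.99 FPKM across replicates 1, 2 and 3 of sh-NC. After knockdown the values were 9.26, 9.57 and 9.01 FPKM. The groups overlapped, at 9.24 ± 0.668 and 9.28 ± 0.278 FPKM (SD, n = 3). That is a log2 change of 0.01, with a 95% interval of -0.14 to 0.15 (adjusted p = 0.921, limma). Its sign followed the processing, at 0.18 with scaling by read totals (adjusted p = 0.0405) and -0.17 with a GC correction (adjusted p = 0.00498, limma).

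Among the inhibitors, TIMP1 and TIMP3 rose and TIMP2 was not called. TIMP1 (ENSG00000102265, chromosome X, 47582313 to 47586789, plus strand), an inducible secreted inhibitor that blocks most soluble matrix metalloproteinases but binds membrane-type enzymes weakly, was at 1.40, 2.22 and 2.05 FPKM across replicates 1, 2 and 3 of sh-NC. Replicates 1, 2 and 3 of sh-CLGN gave 6.66, 7.05 and 6.91 FPKM. All 3 sh-CLGN libraries were far above all 3 sh-NC libraries and close to each other. Reads on the gene numbered 30, 50 and 49 for sh-NC, against 174, 178 and 172 for sh-CLGN, so the sh-NC level was the less precise. The means were 1.89 ± 0.437 and 6.87 ± 0.199 FPKM (SD, n = 3), a 3.63-fold higher level in sh-CLGN. The log2 change was 1.46 (SE 0.111, adjusted p = 2.10e-05, limma) and lay between 1.33 and 1.87 under every alternative tried. TIMP1 lies within SYN1, a gene of the opposite strand that shares 0 exon bases with it.

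TIMP3 (ENSG00000100234, chromosome 22, 32801701 to 32863043, plus strand), which binds the matrix and also inhibits ADAM17 and ADAM10, was at 27.0, 27.1 and 26.3 FPKM across replicates 1, 2 and 3 of sh-NC. The 3 sh-CLGN libraries gave 35.3, 36.9 and 36.7 FPKM. The groups were tight and did not overlap. The means were 26.8 ± 0.434 and 36.3 ± 0.866 FPKM (SD, n = 3), a 1.35-fold higher level, with a log2 change of 0.42 (SE 0.044, adjusted p = 9.4e-05, limma). It stayed called under every alternative tried, and quantile normalization raised the log2 change to 0.69.

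TIMP2 (ENSG00000035862, chromosome 17, 78852977 to 78925387, minus strand), the partner of MMP14 in pro-MMP2 activation, was at 6.81, 6.18 and 6.34 FPKM across replicates 1, 2 and 3 of sh-NC. With the CLGN hairpin the values were 7.49, 6.25 and 7.01 FPKM. The groups overlapped through sh-CLGN replicate 2. A log2 change of 0.09 was estimated, with a 95% interval of -0.08 to 0.26 (adjusted p = 0.325, limma). It was called higher with scaling by read totals at 0.26 (adjusted p = 0.015), with TPM at 0.22 (adjusted p = 0.0387) and with a GC correction at 0.29 (adjusted p = 0.00652, limma).

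Markers of other cell types were read beside the TIMP values. Of 6 fibroblast or stellate markers 4 were tested and were called higher, where 26.7% of all genes tested were. Of these 4, COL1A1, COL3A1 and LUM were under 1 FPKM in every sh-NC library and passed the filter through sh-CLGN alone, while PDGFRB was expressed in both groups. The summed level of the 6 went from 2.83 to 3.43 FPKM in sh-NC to 9.14 to 9.81 FPKM in sh-CLGN. The fibroblast or stellate markers that were not tested, DCN and ACTA2, had at most 1 read and at most 5 reads in any library. The 4 endothelial markers summed to 3.33 to 3.67 FPKM in controls and 2.38 to 2.65 FPKM after knockdown, with KDR at 0 reads, and the 4 leukocyte markers to 69.9 to 77.7 FPKM and 61.1 to 68.4 FPKM, nearly all of it LYZ. The leukocyte markers PTPRC and CD68 had at most 4 and 3 reads in any library. All libraries were of the Hep-G2 line, so a marker expressed here, such as LYZ, need not stand for another cell type. The part of such cells in the TIMP1 and TIMP3 levels was not tested, and in bulk RNA more cells of a type and more RNA per cell cannot be told apart.

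**Figure D2:**
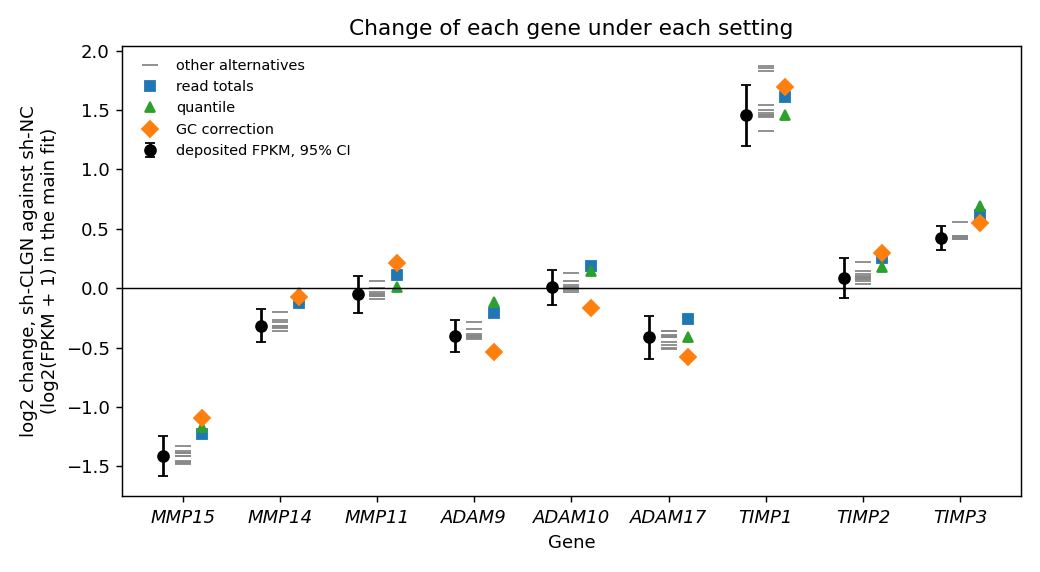
Log2 change, sh-CLGN against sh-NC, of the 9 expressed genes. Black points with bars are the deposited FPKM values with 95% confidence intervals, and the other marks are the alternatives, with scaling by read totals, quantile normalization and GC correction drawn apart. MMP15 stays between -1.48 and -1.09 and TIMP1 between 1.33 and 1.87, while marks for MMP11 and ADAM10 lie on both sides of 0.

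The order of the levels changed between the groups. FPKM values are per length, here that of all annotated exons of a gene, such as 16168 bases for ADAM10 and 1541 for TIMP1. A gene whose expressed transcripts are shorter than that gets a lower value, so the order between genes is approximate. In sh-NC the 3 highest were MMP15, ADAM9 and MMP14, at 42.6, 39.4 and 35.6 FPKM, and the libraries of neighbors in this order overlapped. TIMP3 came next at 26.8 FPKM, then ADAM10 at 9.24 FPKM. TIMP2, MMP11 and ADAM17 followed at 6.44, 5.84 and 5.15 FPKM with overlapping neighbors, and TIMP1 stood below them at 1.89 FPKM. In sh-CLGN, TIMP3 was the highest at 36.3 FPKM, above ADAM9 at 29.6 FPKM and MMP14 at 28.4 FPKM, and MMP15 had dropped to the fourth place at 15.4 FPKM. TIMP1, at 6.87 FPKM, overlapped TIMP2 at 6.92 FPKM.

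Summed within each library, the 4 MMP genes made 85.6, 89.3 and 77.4 FPKM in replicates 1, 2 and 3 of sh-NC, against 49.3, 47.7 and 51.0 FPKM in those of sh-CLGN. The 3 TIMP genes made 35.2, 35.5 and 34.7 FPKM in controls and 49.5, 50.2 and 50.6 FPKM with knockdown. The 3 ADAM genes went from 53.8 ± 3.70 to 42.5 ± 0.689 FPKM (SD, n = 3). The ratio of TIMP to MMP transcripts, which no scaling of a whole library can change, was 0.412, 0.398 and 0.449 in sh-NC, against 1.00, 1.05 and 0.992 in sh-CLGN. A correction that differs between genes, such as the GC correction or quantile normalization, can change it, and the ratio was not computed under these. With all 23 matrix metalloproteinases and TIMP1 to TIMP4 in the sums, the ratio was 0.425 ± 0.024 and 0.955 ± 0.028 (SD, n = 3). MMP15 supplied 50.7% ± 0.937 of the MMP sum in sh-NC and 31.2% ± 1.02 in sh-CLGN, and TIMP1 supplied 5.38% ± 1.24 and 13.7% ± 0.290 of the TIMP sum (SD, n = 3). These sums describe transcripts, not active enzyme, and no test was made on them. They also depend on the gene lengths used, so the size of a ratio between genes is approximate.

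**Figure D3:**
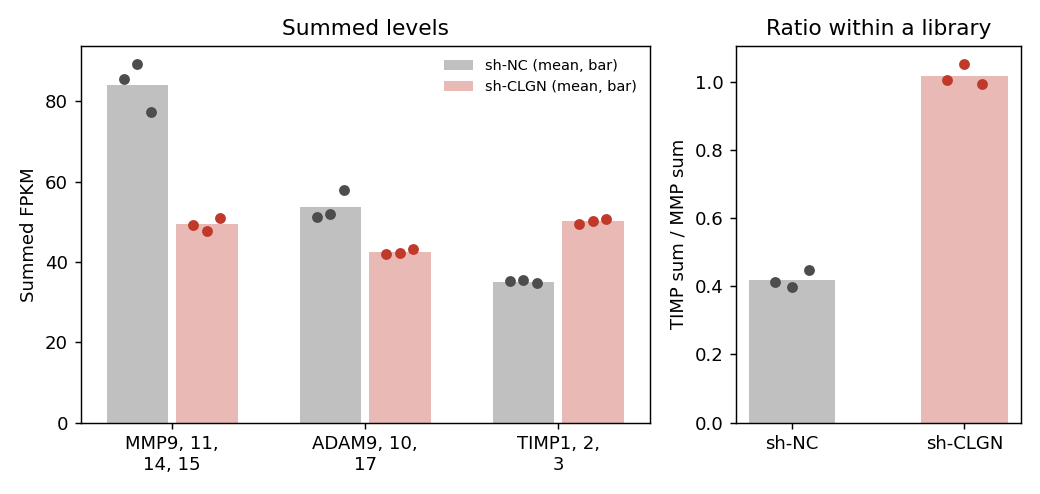
Summed FPKM of the MMP, ADAM and TIMP genes (left) and the ratio of the TIMP sum to the MMP sum (right). Points are libraries and bars are means of 3 libraries, with sh-NC in grey and sh-CLGN in red. The ratio was 0.398 to 0.449 in controls and 0.992 to 1.05 after knockdown.

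The promoters of the called MMP and TIMP genes are shown because such promoters carry well known GC boxes. RefSeq (GRCh38.p14) promoters, 250 bases before to 50 after the gene start, were matched for 7 of the 10 genes. Capitals mark the SP1 core GGGCGG or its complement CCGCCC, searched on both strands. MMP15 (chr16:58025504-58025803, plus strand) and MMP14 (chr14:22836335-22836634, plus strand) fell, and TIMP1 (chrX:47582186-47582485, plus strand) and TIMP3 (chr22:32801455-32801754, plus strand) rose.
MMP15: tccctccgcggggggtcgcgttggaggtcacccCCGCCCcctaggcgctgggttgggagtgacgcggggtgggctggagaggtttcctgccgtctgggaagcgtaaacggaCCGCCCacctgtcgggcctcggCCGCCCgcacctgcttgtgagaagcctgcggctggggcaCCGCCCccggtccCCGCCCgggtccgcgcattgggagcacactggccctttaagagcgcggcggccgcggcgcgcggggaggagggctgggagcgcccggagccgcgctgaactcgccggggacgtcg
MMP14: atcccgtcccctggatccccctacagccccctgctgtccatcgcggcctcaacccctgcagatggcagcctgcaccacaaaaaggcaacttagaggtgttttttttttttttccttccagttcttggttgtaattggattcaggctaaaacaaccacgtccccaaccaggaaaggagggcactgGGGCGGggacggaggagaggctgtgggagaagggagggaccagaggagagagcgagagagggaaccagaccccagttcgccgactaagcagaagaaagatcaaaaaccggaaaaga
TIMP1: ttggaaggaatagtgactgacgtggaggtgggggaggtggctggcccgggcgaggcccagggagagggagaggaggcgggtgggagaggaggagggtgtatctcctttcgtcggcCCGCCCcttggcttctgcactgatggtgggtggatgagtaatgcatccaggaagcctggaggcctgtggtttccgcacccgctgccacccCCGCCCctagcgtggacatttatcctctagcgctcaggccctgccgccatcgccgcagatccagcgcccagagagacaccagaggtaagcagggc
TIMP3: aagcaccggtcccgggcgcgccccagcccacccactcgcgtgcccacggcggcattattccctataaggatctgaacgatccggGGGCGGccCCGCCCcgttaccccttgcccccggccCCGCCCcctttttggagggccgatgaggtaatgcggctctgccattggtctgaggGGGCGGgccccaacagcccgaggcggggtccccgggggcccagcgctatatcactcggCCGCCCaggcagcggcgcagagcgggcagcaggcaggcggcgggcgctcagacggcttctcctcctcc

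The SP1 core was in 7 of 7 promoters, against 45.0% of 35116 RefSeq promoters of the same length. That share was not matched for GC content. The 7 windows had a GC content of 55% (MMP14) to 75.3% (MMP15), and a core made of G and C alone is more likely in such windows. It occurred 5 times in MMP15 and TIMP3, 4 times in MMP11, 3 times in ADAM17, 2 times in TIMP1, and 1 time in MMP14 and ADAM10, so genes that rose, fell or were not called all held it. The AP-1 core TGANTCA (7.71% of all promoters), the EGR1 motif (9.43%), the NF-kB motif (5.91%) and TATAAA (11.5%) were in 0 of the 7 windows. The ETS core CCGGAAG (10.3%) was in ADAM17 alone, 2 times. Only exact matches were counted. Near matches, such as tgagtaa (AP-1) and caggaag (ETS) in the TIMP1 window, were not, so a count of 0 does not mean that such an element is absent. A match in these letters is a description of the window.

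The annotated 3′ UTRs were also read for heptamers complementary to the CLGN hairpin's guide strand at guide bases 2 to 8 (TACCACA), 3 to 9 (ATACCAC) and 1 to 7 (ACCACAA), the stretch by which such a guide pairs. TACCACA was in the 3′ UTRs of MMP14 and ADAM10, 2 of 9 genes, against 9.75% of 10880 tested genes with a 3′ UTR of at least 50 bases. That share was not matched for length. The 3′ UTR of ADAM10 had 8740 bases, against 609 (TIMP1) to 3666 (TIMP3) in the other genes, and a longer one has more places for a heptamer. The overlapping ACCACAA was in the same 2 genes (10.5% of all) and ATACCAC in ADAM10 alone (7.33%). The 2 sites are shown with 7 bases on each side and the heptamer in capitals, MMP14 at chr14:22846065-22846071 (plus strand) and ADAM10 at chr15:58597196-58597202 (minus strand).
MMP14 site: ccactccTACCACAaggactt
ADAM10 site: aaactttTACCACAaattgaa
MMP14 had a log2 change of -0.32 and ADAM10 of 0.01. The 3′ UTRs read for MMP11, MMP15, ADAM9, ADAM17, TIMP1, TIMP2 and TIMP3 held none of the 3 heptamers searched. Whether the hairpin acts on any of these transcripts was not tested. With a single hairpin per group, such an effect and the loss of CLGN cannot be told apart.

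Around the 10 genes, the wider families were sparsely expressed. Of 23 matrix metalloproteinase genes 5 were tested, and 11 had at most 3 reads in every library, 5 of them with 0 reads throughout. MMP17, a membrane-type enzyme held by a lipid anchor, fell from 4.55 ± 1.09 to 1.44 ± 0.240 FPKM (SD, n = 3), a log2 change of -1.17 (SE 0.145, adjusted p = 0.00023, limma). MMP16, another membrane-type enzyme, rose from 1.40 ± 0.089 to 2.51 ± 0.099 FPKM (SD, n = 3; log2 change 0.55, adjusted p = 0.00035, limma). The membrane-type genes thus did not move in 1 direction. MMP24, also of this type but under the filter, had read counts of 22, 34 and 19 under the control hairpin against 57, 78 and 76 after knockdown and was not tested.

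Of 21 ADAM genes 6 were tested, with 4 lower and 1 higher, where 39% of all genes tested were lower and 26.7% higher. ADAM23, which lacks protease activity and binds integrins, showed the largest fall of these, from 5.57 ± 0.358 to 1.58 ± 0.149 FPKM (SD, n = 3; log2 change -1.35, adjusted p = 5.7e-06, limma). ADAM15 fell from 5.78 ± 0.313 to 3.08 ± 0.031 FPKM (SD, n = 3; log2 change -0.73, adjusted p = 3.19e-05, limma). ADAM22, an inactive neuronal adhesion protein, was at 0.787 and 1.47 FPKM (log2 change 0.47, adjusted p = 0.0020, limma), and it passed the filter through sh-CLGN alone. Among the secreted ADAMTS enzymes, which cut proteoglycans, procollagens and von Willebrand factor, 6 of 19 were tested, 4 were higher and 0 were lower, but ADAMTS3 and ADAMTS6 were under 1 FPKM in every sh-NC library and passed the filter through sh-CLGN alone. With a filter on the mean of 0.1 FPKM, 11 were tested, 6 were higher and 1 was lower. Of all 22534 genes tested under that filter, 4661 were higher and 5059 lower. ADAMTS3, a procollagen II processing enzyme, had a log2 change of 0.71 (adjusted p = 0.00067, limma). ADAMTS13, the von Willebrand factor protease made in the liver, rose from 1.59 ± 0.439 to 3.55 ± 0.167 FPKM (SD, n = 3; log2 change 0.83, adjusted p = 0.00069, limma), and ADAMTS6 had a log2 change of 0.56 (adjusted p = 0.00083, limma). ADAMTS12 also rose, by a log2 change of 0.42 (adjusted p = 0.0015, limma). ADAMTS1, the most abundant, was at 9.72 and 11.1 FPKM (adjusted p = 0.0529), and ADAMTS9 at 2.86 and 2.51 FPKM (adjusted p = 0.153, limma). The median log2 changes were -0.32 for the MMP list and -0.41 for the ADAM list, beside -0.08 over all genes tested.

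**Figure D4:**
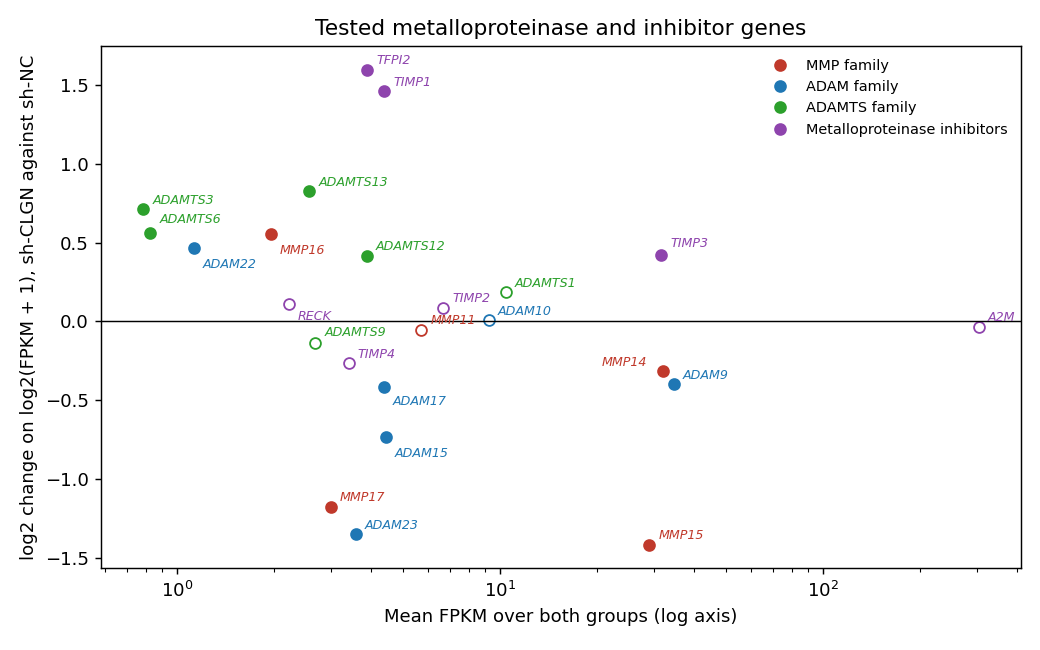
Log2 change on log2(FPKM + 1), sh-CLGN against sh-NC, against the mean FPKM over both groups (log axis) for every tested gene of the MMP, ADAM, ADAMTS and inhibitor lists. Filled points had an adjusted p of at most 0.05 and open points did not. TFPI2 (1.59) and TIMP1 (1.46) lie highest, MMP15 (-1.41) and ADAM23 (-1.35) lowest, and A2M lies near 0 at the highest level.

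Of 8 metalloproteinase inhibitors 7 were tested, 3 were higher and 0 were lower, with a median log2 change of 0.11, and 6 were higher with scaling by read totals. Of all genes tested 26.7% were higher and 39% lower. The share of all calls that were higher went from 40.7% to 59.2% with scaling by read totals. Beside TIMP1 and TIMP3 the third was TFPI2, a matrix-bound serine protease inhibitor that also inhibits matrix metalloproteinases. TFPI2 gave 1.23, 1.43 and 1.64 FPKM for sh-NC, against 7.06, 6.12 and 5.87 FPKM for sh-CLGN, a 4.43-fold higher level (log2 change 1.59, SE 0.092, adjusted p = 6.2e-06, limma). A2M, the circulating trap inhibitor of many proteases, was by far the most abundant and was at 307.2 ± 19.1 and 300.2 ± 5.73 FPKM (SD, n = 3; log2 change -0.03, adjusted p = 0.646, limma), although its sign turned with the scaling. TIMP4 gave 3.82, 4.23 and 3.21 FPKM for sh-NC, against 4.22, 2.03 and 2.89 FPKM for sh-CLGN. Its log2 change of -0.26 was not called (adjusted p = 0.24), and leaving out sh-CLGN replicate 1 gave -0.46 (adjusted p = 0.0245) and leaving out sh-CLGN replicate 2 gave -0.07 (adjusted p = 0.695, limma).

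Of 15 genes that mature or carry these proteases 14 were tested, 9 were lower and 1 was higher, with a median log2 change of -0.33, where 39% of all genes tested were lower. With TPM 7 were lower, and with scaling by read totals or the GC correction 6 were lower and 2 higher. Fewer of all genes were lower under these settings too. Of 13074 genes 5102 were lower with the deposited scaling, 3923 with TPM and 3421 with read totals. With the GC correction 4474 of 13068 were lower. FURIN, the proprotein convertase that removes the propeptide of membrane-type MMPs, MMP11 and ADAMs, gave 378, 378 and 330 FPKM for sh-NC, against 143, 151 and 160 FPKM for sh-CLGN (log2 change -1.25, SE 0.070, adjusted p = 5.7e-06, limma). PCSK6, a convertase of the same family, fell from 16.7 ± 0.487 to 8.40 ± 0.259 FPKM (SD, n = 3; log2 change -0.92, adjusted p = 5.6e-06, limma). TSPAN17, a tetraspanin that takes ADAM10 to the cell surface, fell from 8.48 ± 0.181 to 3.83 ± 0.142 FPKM (SD, n = 3; log2 change -0.97, adjusted p = 5.9e-06, limma).

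Of 28 genes whose proteins ADAM10 or ADAM17 shed, 20 were tested, 5 were higher, 9 were lower and the median log2 change was -0.18. These counts were near the shares of all genes tested, 26.7% higher and 39% lower. With quantile normalization 8 were higher and 9 lower, where 3954 of all 13074 genes tested were higher and 4251 lower. CD44, the hyaluronan receptor, rose from 0.880 ± 0.106 to 6.89 ± 0.079 FPKM (SD, n = 3; log2 change 2.07, adjusted p = 1.05e-06, limma), with 1 of 3 sh-NC libraries at the filter's 1 FPKM. The heparan sulfate proteoglycan gene SDC4 fell from 203.9 ± 4.28 to 81.4 ± 2.24 FPKM (SD, n = 3; log2 change -1.31, adjusted p = 1.05e-06, limma). ICAM1, a leukocyte adhesion receptor, fell from 113 ± 5.13 to 42.5 ± 1.32 FPKM (SD, n = 3; log2 change -1.38, adjusted p = 1.37e-06, limma). The list thus held changes in both directions.

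The plasmin system, which activates several proMMPs, had 5 of 8 genes tested, 4 lower and 0 higher, with a median log2 change of -0.26, and 2 were lower with read totals, TPM or the GC correction. Of all genes tested 39% were lower and 26.7% higher with the deposited scaling. Those lower, 5102 of 13074 there, numbered 3421 with read totals and 3923 with TPM, and 4474 of 13068 with the GC correction. SERPINF2, alpha-2-antiplasmin, fell from 219 ± 15.7 to 94.2 ± 2.21 FPKM (SD, n = 3; log2 change -1.21, adjusted p = 3.8e-06, limma). PLG, plasminogen itself, fell to 86.9% of the sh-NC level (log2 change -0.19, adjusted p = 0.0142, limma), a call lost without sh-CLGN replicate 2 (adjusted p = 0.064) and with scaling by read totals, TPM, quantile normalization and the GC correction (adjusted p = 0.918, 0.376, 0.583 and 0.436).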

How the data were processed

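The 6 Hep-G2 libraries (3 sh-NC, 3 sh-CLGN) were prepared, as the labels state, with NEBNext Ultra reagents. Deposited by the authors was a single table that lists FPKM by gene for every library. The submitters' processing notes name HISAT2 2.0.5, featureCounts and the build GRCh38, and the strandedness of counting is not given in the sources used here. All 58735 gene positions equalled those of GENCODE 29. Column names (NC and KD with a number) tied each column to its sample.

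The value of 1 read was found for each library from the steps of FPKM times gene length, and division by it gave whole reads for 100% of values (tolerance 0.01 read), 14955816 to 16244639 in sum. The library size used by the authors was 0.933 to 0.953 of that sum for controls and 1.07 to 1.08 for knockdowns. The floor was 3 reads and covers counting error only.

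The comparison used limma 3.58.1 in R 4.3.3 (eBayes, intensity trend, two-sided) on log2(FPKM + 1) with no covariate. The alternatives were a smaller pseudocount (0.1), testing all genes, a filter on the mean (0.1 FPKM), scaling by read totals, TPM, quantile normalization, a GC correction (lowess span 0.3), voom on the recovered reads, limma without trend, the replicate number as a block, and each library left out in turn. Tested on simulated data of this comparison (13074 genes, 200 of them changed by 1.5 on the log2 scale), it recovered 193 of the 200 and made 7 false calls. The simulated reads had 1 fixed dispersion for all genes and were scaled by read totals. Far fewer genes changed in them than were called here. The result is a check of the procedure and gives no error rate for these data. The 10 genes and all lists were chosen with earlier results of these data known. The text names the 10 genes, the 3 genes with the smallest adjusted p in each list, the 3 most abundant others of each family list, and the 3 genes most correlated with MMP15. A gene that meets this rule is not reported here. Other names, such as MMP2, the markers and overlapping genes, were chosen after their values were seen. Promoter sequences came from RefSeq and UTRs from GENCODE 29. Figures used Python 3.11.15 with matplotlib 3.10.9.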

Additional observations from a re-analysis of the deposited data

How the results depend on the processing

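CLGN, MMP15, TIMP1, TIMP3 and ADAM17 kept their direction and their call under every alternative, and CLGN ranged from -1.44 to -1.12. The count of the 10 genes called higher, 2, became 4 with scaling by read totals, 3 with TPM and 4 with the GC correction. All genes called higher numbered 3496 of 13074, then 4956, 4285 and, of 13068, 4284. The count of the 10 called lower, 4, became 3 with read totals and 2 with quantile normalization. All genes called lower numbered 5102, then 3421 and 4251. With the GC correction 4 of the 10 were lower, with ADAM10 in place of MMP14. Both counts of the 10 genes stayed at 2 and 4 when any 1 library was left out. The sign of MMP11 turned with scaling by read totals (0.12), TPM (0.064), quantile normalization (0.012) and the GC correction (0.21), and it lay between -0.090 and 0.00083 without 1 library. ADAM10 turned to -0.17 with the GC correction and lay between -0.029 and 0.060 without 1 library. A2M turned to 0.16, 0.10, 0.30 and 0.10 with read totals, TPM, quantile normalization and the GC correction, and ADAMTS9 to 0.0075 with read totals. Without 1 library A2M lay between -0.084 and 0.0012, the latter without sh-NC replicate 2. The cause was not tested. The median log2 change of all genes moved by 0.16 with read totals and by 0.11 with TPM, and with read totals that median was 0.08, beside 0.18 for ADAM10 and 0.26 for TIMP2. Fewer exclusions of low genes moved it by 0.11 (no filter) and 0.12 (mean filter), since other genes entered.

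Of the counts of context genes called in each direction, 203 stayed within 1.5 times of their value under an alternative and 21 did not. Samples with the same replicate number did not deviate together (correlations of -0.02, -0.05 and -0.15), so the numbers were not taken as pairs. With the replicate block the counts were again 2 higher and 4 lower, and no call of the 10 genes changed. Depth limits TIMP1 in sh-NC (30 to 50 reads) and the untested family members.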

Other observations

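Some family members under the expression filter had groups that did not overlap. They were chosen after their values were seen and were not tested. Across the whole table, genes with at least 1 read numbered 23578 to 23793 per sh-NC library and 26814 to 27006 per sh-CLGN library. More genes thus had a read in the sh-CLGN libraries across the whole table. How many of all genes under the filter had groups that did not overlap was not counted. ADAM21, a member known from testis, had read counts of 0, 1 and 3 in replicates 1, 2 and 3 of sh-NC, against 35, 22 and 32 in those of sh-CLGN, or up to 0.073 and up to 0.776 FPKM. ADAMTS20 had read counts of 31, 38 and 45 for sh-NC, against 140, 107 and 151 for sh-CLGN. ADAMTS10, which acts on fibrillin microfibrils, had read counts of 29, 27 and 28 for sh-NC, against 83, 67 and 63 for sh-CLGN. ADAM8 had read counts of 21, 34 and 33 for sh-NC, against 56, 60 and 58 for sh-CLGN. The other way, ADAMTS16 had read counts of 90, 113 and 69 for sh-NC, against 39, 26 and 52 for sh-CLGN, and MMP19 had read counts of 60, 58 and 37 for sh-NC, against 26, 33 and 29 for sh-CLGN.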
